A study of Mus musculus with 42 samples.

Results

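The uterus of the mouse holds tissue-resident natural killer (trNK) cells, and the libraries described here compare them at gestational day 8.5 (gd8.5) with those of virgin mice. The members were the bulk RNA-seq libraries whose labels give trNK cells of a virgin or a gd8.5 uterus, 2 of each, so 4 of the 42 samples of the series. All were wild-type C57BL/6 females, 8 to 12 weeks old by the methods, with no treatment in vivo, and the day of the copulation plug counted as gd0.5. The cells had been sorted as live, lineage-negative CD45+, NK1.1+, NKp46+, CD49a+ and CXCR6- lymphocytes of digested uteri, and the number of mice behind a library was not given in the sources used here. The 2 libraries of gd6.5 trNK cells, made from the same sort 2 days earlier in gestation, entered the same fit and are given beside results only.

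Natural killer cells carry granules of perforin and granzymes and read their neighbours through activating and inhibitory receptors, many of which bind class I MHC. In the uterus, the resident cells multiply as the lining turns into decidua and are known for secreted factors that act on the spiral arteries more than for killing. Cells that have just been stimulated switch on immediate early genes within minutes, among them AP-1 and Nr4a transcription factors and the phosphatases that end MAP kinase signalling. Cells that are preparing to grow raise ribosome assembly, amino acid supply and DNA synthesis.

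The totals were 22956216 and 18188514 counts in virgin libraries 1 and 2 and 16820631 and 16422380 counts at gd8.5. Levels are given as RPKM, the reads of a gene scaled to its exon length and to the total of the library. Of the 54353 genes that all files share, 4504 exceeded 10 RPKM in both members of the virgin, gd6.5 or gd8.5 group and were tested. The labels do not say that libraries came from separate animals or days, so each p-value measures the spread between these libraries, which may be technical. A bulk level cannot tell fewer cells of a type apart from less RNA per cell.

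The virgin libraries stood apart from each other. Among tested genes, 466 differed over 2-fold between them on RPKM + 1, against 64 between the gd8.5 libraries and 86 between the gd6.5 libraries. Higher in virgin 1 were Cd3d, a chain of the T cell receptor complex, at 81.5 against 1.64 RPKM, the integrin chain Itgb7 at 70.2 against 4.17, and the survival kinase Pim2 at 283 against 33.6. Higher in virgin 2 were the granzymes Gzma to Gzmg, with Gzmc at 22.4 in virgin 1 against 8387 RPKM in virgin 2, whereas Gzmk was higher in virgin 1, at 37.6 against 5.98 RPKM. Also higher in virgin 2 was the chemokine Ccl1, at 0 against 119. Ptprcap, a partner of CD45, was listed at 0 in virgin 1 and at 1011 in virgin 2, but the file of virgin 1 gives that gene another length than the other files do. That file also lists other exon positions for 2289 of the 4504 tested genes, and whether it was counted with another annotation is not given in the sources used here. Among the 2215 tested genes with the same exon positions in all files, a restriction chosen after seeing the data, 263 differed over 2-fold between the virgin libraries, 46 between the gd8.5 libraries and 58 between the gd6.5 libraries. Medians of the described lists of 10 or more tested genes are therefore given against each virgin library as well as against both.

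The genes of the sort gate were present in all 4 libraries. Ncr1, which encodes NKp46, stood at 992 and 979 RPKM in virgin cells and at 683 and 716 at gd8.5. Klrb1c, which encodes NK1.1, stood at 169 and 199 in virgin and 189 and 174 at gd8.5. Itga1, which encodes CD49a, was low, at 14.4 and 9.60 in virgin and 9.44 and 9.19 at gd8.5. Eomes, a transcription factor of trNK and conventional NK cells, stood at 66.0 and 33.9 in virgin and 40.1 and 33.8 at gd8.5. Cxcr6, which the gate excludes, was at 14.9 and 0.683 in virgin and at 0.0308 and 5.08 at gd8.5. The summed RPKM of 6 B and plasma cell markers was between 0 and 5.03, that of 5 neutrophil markers between 0 and 0.872, that of 5 dendritic cell markers between 0 and 0.558, that of 5 trophoblast markers between 0 and 2.04, and that of 9 stromal and decidual markers between 0.241 and 5.24. The 7 macrophage markers summed to between 1.66 and 10.1 RPKM and the 6 mast cell and basophil markers to between 3.99 and 17.99 RPKM. Other sets moved with the virgin libraries. The 6 ILC1 markers summed to 45.8 RPKM in virgin 1, 11.8 in virgin 2 and 10.1 and 30.1 at gd8.5. The 5 endothelial markers summed to 13.2 and 29.2 RPKM in virgin and 37.2 and 34.1 at gd8.5, above both virgin libraries, but 4 of the 5 were below 1 RPKM in the 4 libraries and Pecam1, which leukocytes also express, made up the rest. The 5 epithelial markers summed to 9.64 and 32.7 in virgin and 36.2 and 31.7 at gd8.5. Epcam stood at 1.90, 29.4, 28.3 and 25.5 RPKM in that order, most of the sum in each library except virgin 1. The part of these sets in the results was not tested. The 6 erythroid markers summed to 12.8 and 224 in virgin cells and to 0.252 and 844 at gd8.5, which divided the libraries within each group. The 9 T cell markers summed to 1651 and 1634 RPKM in virgin and 1499 and 1507 at gd8.5. Most of it came from Trbc1, at 1052 and 1166 in virgin and 1045 and 1022 at gd8.5. Cd3g stood at 183 and 26.9 in virgin and 95.6 and 136 at gd8.5, and Cd3d at 81.5 and 1.64 against 25.55 and 13.1. Cd3e was below 1 RPKM in the 4 libraries.

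Across all tested genes, a small set was called between gd8.5 and virgin trNK cells, most of them lower at gd8.5. With edgeR's quasi-likelihood test, 17 genes were called (Benjamini-Hochberg adjusted p under 0.05, over 2-fold), 0.377% of those tested. Of these, 1 was higher at gd8.5 (0.0222%) and 16 were lower (0.355%). Most of the 16 passed the filter only through the virgin group and the 1 only through gd8.5, the groups where they were high. Genes that differ widely between the virgin libraries are also hard to call, so the calls do not measure direction over all genes. Before adjustment, 630 genes had a p below 0.05. On RPKM, 1288 genes (28.6%) were above both virgin libraries in both gd8.5 libraries and 813 (18.1%) were below both. With TMM-scaled CPM in place of RPKM these became 1024 (22.7%) and 1043 (23.2%), so the excess of higher genes rested on the scaling. A gap over 2-fold between the nearest libraries on RPKM + 1 was found for 31 higher genes (0.688%) and 65 lower genes (1.44%). The fitted log2 differences were positive for 2205 genes and negative for 2299, with a median of -0.01. Set against virgin 2 alone, 79 of 4637 genes were called (1.70%, 18 higher and 61 lower). Against virgin 1 alone, 597 of 4888 were called (12.2%, 253 higher and 344 lower). Without either gd8.5 library edgeR called 0 genes, with 314 and 345 at an unadjusted p below 0.05, while DESeq2 called 164 genes with all libraries. Among the 2215 genes with the same exon positions in all files 8 were called, 1 higher and 7 lower. With the replicate number as a block, edgeR called 0 genes.

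**Figure D1:**
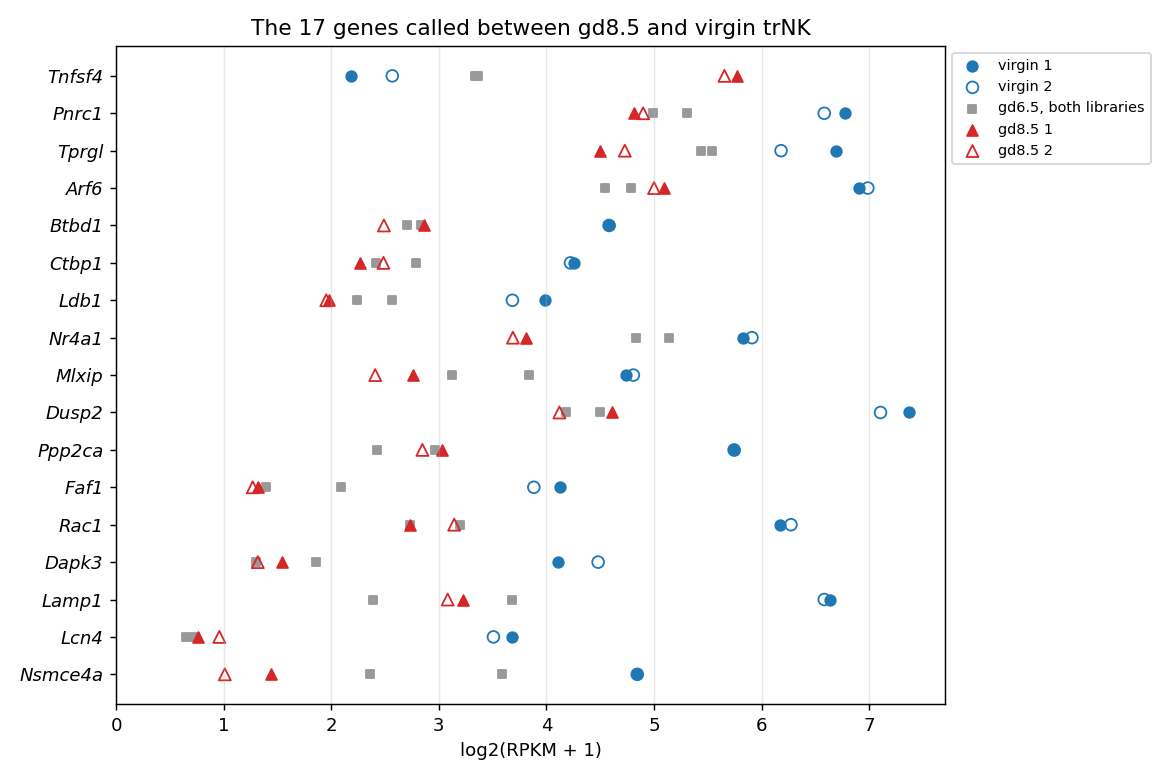
Level of each of the 17 called genes, as log2(RPKM + 1), in the virgin (blue circles), gd6.5 (grey squares) and gd8.5 (red triangles) libraries, with each library drawn singly. The gd8.5 triangles lie right of both virgin circles for Tnfsf4 and left of both for the other 16 genes.

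Tnfsf4 encodes OX40 ligand, a TNF family protein that costimulates T cells, and was the gene called higher at gd8.5. It stood at 3.55 and 4.92 RPKM in the virgin libraries and at 53.8 and 49.4 RPKM at gd8.5. The groups were far apart, and each gd8.5 library stood about as high as the other. The log2 fold change was 3.54 (SE 0.28, n = 2 per group, edgeR adjusted p = 0.014), which is 11.6-fold. It was 3.85 against virgin 1 alone and 3.33 against virgin 2 alone, in fits that share the gd8.5 libraries. The gd6.5 libraries stood at 9.08 and 9.29 RPKM. Tnfsf4 therefore passed the filter of 10 RPKM only through the gd8.5 group, where it was high. The gene lies on chromosome 1 from 161395409 to 161418410 on the plus strand of GRCm38 (mm10). In the 6 libraries of gd8.5 trNK subsets sorted by CD55 and 4-1BB (CB low, int and hi), Tnfsf4 ranged from 3.55 to 24.3 RPKM. No subset library reached the level of the unsplit gd8.5 cells. Of the 6, 4 lay above both virgin libraries. The first CB low library, at 3.55, and the second CB hi library, at 4.165, lay within the virgin range, while the first CB hi library had 24.3. In the 6 libraries of 72 h cultures Tnfsf4 ranged from 42.7 to 239 RPKM. The other tested TNF family ligands, Ltb and Tnfsf9, were not called, and both overlapped between the groups.

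Other genes lay far above both virgin libraries at gd8.5 without passing the test. Asns, which makes asparagine, stood at 2.36 and 3.16 RPKM in virgin cells and 10.5 and 11.9 RPKM at gd8.5 (log2 fold change 1.96, SE 0.32, adjusted p = 0.083). The noncoding genes Gm15920 and Gm13092 were also far higher. Gm15920 was at 1.08 and 3.15 RPKM in virgin and 76.8 and 82.9 at gd8.5 (adjusted p = 0.060), and Gm13092 at 1.51 and 4.02 against 43.7 and 41.5 (adjusted p = 0.052). Gm16328, also unnamed by function, was at 5.12 and 10.7 in virgin and 59.5 and 55.9 at gd8.5 (adjusted p = 0.072). For 3 further genes the size of the gap depended on which virgin library was read. Zbtb32, a transcriptional repressor of activated lymphocytes, stood at 0.0925 in virgin 1 and 10.8 in virgin 2, against 53.5 and 49.0 at gd8.5 (adjusted p = 0.38). Cd83, a surface marker of activated immune cells, stood at 0 and 2.69 in virgin and 17.5 and 10.8 at gd8.5 (adjusted p = 0.38). Gzmf stood at 0 and 143 in virgin and 925 and 904 at gd8.5 (adjusted p = 0.44). Asns, Gm15920, Gm13092 and Cd83 passed the filter of 10 RPKM only through the gd8.5 group, where they were high.

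The 16 genes called lower included small GTPases, phosphatases, a kinase and transcriptional regulators. All 16 also lay below both virgin libraries in both gd6.5 libraries, with Rac1 at 8.14 and 5.62 RPKM at gd6.5. The gd6.5 libraries share the virgin reference, and calling these genes favours high virgin values, so this is no separate comparison. The share of all tested genes below both virgin libraries at gd6.5 was not counted. Rac1, a small GTPase that drives actin remodelling, was at 70.9 and 76.3 RPKM in virgin cells and at 5.66 and 7.83 RPKM at gd8.5. Both gd8.5 libraries lay far below both virgin libraries, and the fitted log2 fold change was -3.52 (SE 0.27, adjusted p = 0.014). Arf6, a GTPase of membrane recycling, was at 119 and 126 RPKM in virgin and 33.1 and 31.0 at gd8.5 (-2.0, adjusted p = 0.017). Lamp1, a lysosomal membrane protein that appears on the surface when NK cells release granules, was at 98.5 and 94.8 in virgin and 8.34 and 7.47 at gd8.5 (-3.68, SE 0.48, adjusted p = 0.050). Ppp2ca, the catalytic subunit of protein phosphatase PP2A, was at 52.5 and 52.6 in virgin and 7.18 and 6.2 at gd8.5 (-3.04, adjusted p = 0.014). In each of these genes the virgin libraries lay close together, which selection by a small p-value itself favours.

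The largest fall was that of Nsmce4a, a subunit of the SMC5-SMC6 complex in DNA repair, from 27.7 RPKM in both virgin libraries to 1.71 and 1.01 RPKM (log2 fold change -4.42, SE 0.54, adjusted p = 0.044). The lipocalin Lcn4 fell from 11.8 and 10.4 RPKM to 0.691 and 0.944 RPKM, the latter pair on 9 and 12 counts, and Dapk3, a death-associated kinase, from 16.3 and 21.3 to 1.90 and 1.49. Faf1, a Fas-associated factor of the ubiquitin system, fell from 16.4 and 13.8 to 1.49 and 1.41. The transcriptional corepressor Ctbp1 fell from 18.1 and 17.7 to 3.81 and 4.60, and Mlxip, a glucose-responsive transcription factor, from 25.7 and 27.0 to 5.75 and 4.31. Btbd1 fell from 22.9 and 22.9 RPKM to 6.29 and 4.61 RPKM (log2 fold change -2.14), and Tprgl from 102 and 71.5 to 21.5 and 25.5 (-1.95). Pnrc1, a nuclear receptor coactivator, fell from 108 and 94.8 to 27.0 and 28.8 (-1.93). Ldb1, a LIM domain binding protein, fell from 14.8 and 11.8 to 2.94 and 2.87 (-2.27), but its length differs in the file of virgin 1. Of the genes called lower, Arf6, Tprgl, Pnrc1, Nr4a1 and Dusp2 passed the filter of 10 RPKM in another group too. The others passed it only through the virgin group, where they were high. Exons of 7 of the 17 called genes, Rac1 and Lamp1 among them, overlap exons of another gene, and the sources used here do not say how such reads were counted.

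The levels of these genes in the other bulk libraries of the series are given beside the same virgin values, so they share that reference and are no separate comparison. In the 6 subset libraries of gd8.5, Rac1 ranged from 5.32 to 15.8 RPKM, Lamp1 from 6.31 to 28.1, Ppp2ca from 3.22 to 15.7 and Arf6 from 26.3 to 62.7. Tprgl ranged from 25.5 to 95.6 RPKM and Mlxip from 4.51 to 32.4 RPKM, and for both the first CB low library stood above at least 1 virgin library. Nsmce4a stood at 15.69 and 3.897 RPKM in CB low, 10.08 and 1.803 in CB int and 3.46 and 2.858 in CB hi. All lay above both unsplit gd8.5 libraries and below both virgin libraries. Its gd6.5 levels were 10.99 and 4.141. Mlxip stood at 32.36 and 8.476, 21.5 and 4.51, and 10.99 and 7.746 in the same subset order. Both genes were higher in replicate 1 of each subset, whereas Rac1 in CB int stood at 8.55 and 8.578. The part of the replicate number was not tested. In the 16 libraries of a culture time course of gd6.5 cells, the highest levels of Rac1, Ppp2ca and Nsmce4a were 90.6, 59.1 and 70.5 RPKM. Nsmce4a stood above both virgin libraries in 15 of the 16, whereas Rac1 was below both in 10 and Ppp2ca was below both in 15. Rac1 ranged from 20.4 to 90.6 RPKM in that time course but from 5.57 to 12.5 RPKM in the 6 libraries of the 72 h cultures, and the part of the library series in these levels was not tested. Dapk3, by contrast, stayed at or below 1.79 RPKM throughout the time course. Whether virgin and gd8.5 libraries were made together is not in the labels, so a preparation batch and gestation cannot be told apart.

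**Figure D2:**
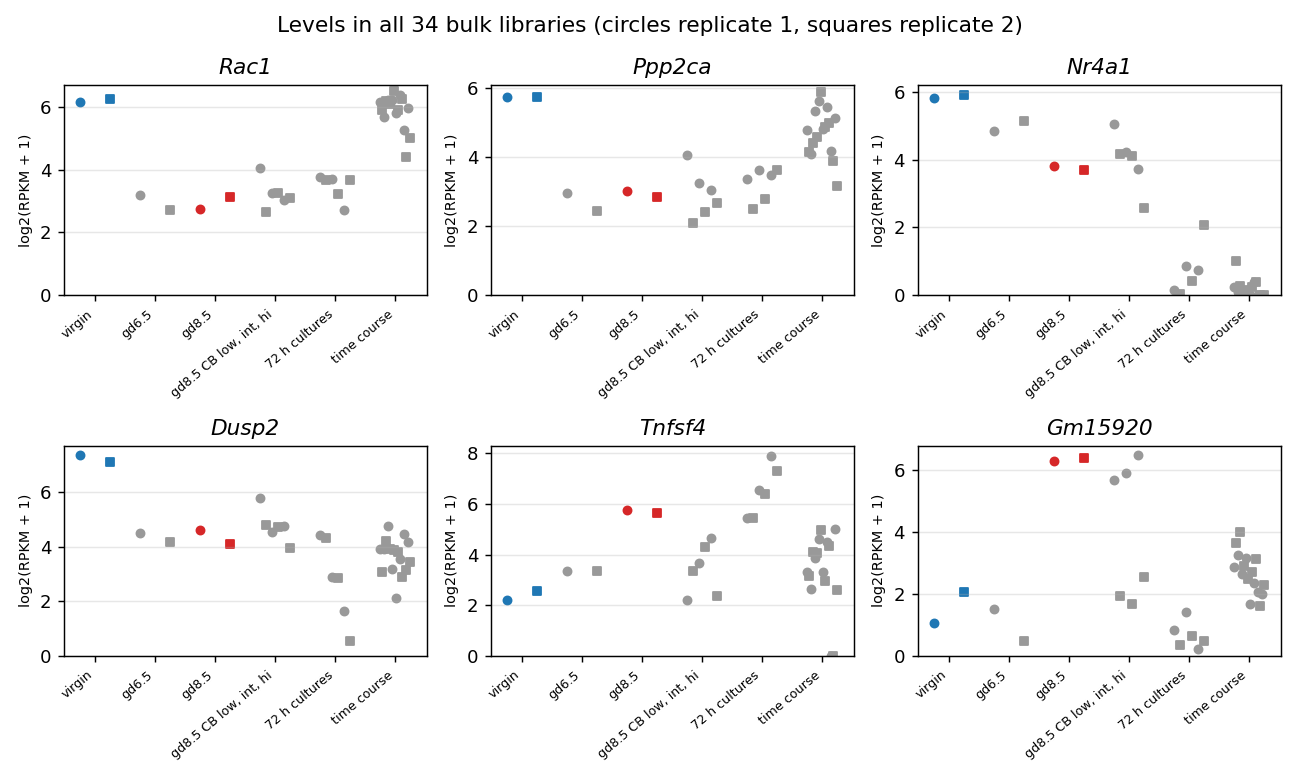
Levels of 6 genes, as log2(RPKM + 1), in all 34 bulk libraries, with virgin in blue, gd8.5 in red, other libraries in grey, circles for replicate 1 and squares for replicate 2. Rac1 and Ppp2ca are low in gd6.5, gd8.5, subset and 72 h culture libraries and mostly higher in the time course, while Nr4a1 and Dusp2 lie highest in the virgin libraries.

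Immediate early genes formed the group with the lowest median among the lists of 10 or more tested genes. Of 15 tested members, 13 had a negative log2 difference and 11 lay below both virgin libraries, against a background of 18.1% of tested genes. On TMM-scaled CPM 12 lay below both, against 23.2%. The median log2 fold change was -1.25, beside -0.01 over all tested genes. It was similar against each virgin library, at -1.08 against virgin 1 and -1.11 against virgin 2. In the fit against virgin 1 alone, 8 of 15 were called lower where 7.04% of tested genes were. Against virgin 2 alone, 7 of 17 were called lower where 1.32% were.

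Members called with both virgin libraries were Nr4a1 and Dusp2. Nr4a1, the orphan nuclear receptor also named Nur77, stood at 55.8 and 59.1 RPKM in virgin cells and 13 and 11.9 RPKM at gd8.5 (log2 fold change -2.28, SE 0.19, adjusted p = 0.014). The gd6.5 libraries lay between them, at 27.5 and 34.4 RPKM. Dusp2, a nuclear phosphatase of ERK and p38, stood at 164 and 137 in virgin and 23.4 and 16.4 at gd8.5 (-2.99, SE 0.25, adjusted p = 0.014). Jund, an AP-1 subunit, stood at 69.7 and 70.3 in virgin and 10.0 and 8.21 at gd8.5 (-3.01, SE 0.42, adjusted p = 0.054).

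More members are named after their values were seen. Fos, the partner of Jun proteins in AP-1, was at 149 and 82.5 RPKM in virgin and 43.5 and 30.4 at gd8.5 (adjusted p = 0.14). Junb was at 538 and 551 in virgin and 294 and 243 at gd8.5 (adjusted p = 0.21). Dusp5, an ERK phosphatase, was at 84.4 and 72.0 in virgin and 15.7 and 16.9 at gd8.5 (adjusted p = 0.060), and Zfp36, which destabilises cytokine mRNAs, at 44.5 and 37.0 against 16.8 and 16.1 (adjusted p = 0.11). Jun and Egr1 overlapped between the groups. The subset libraries of gd8.5 were not uniformly low in these genes. In the 2 CB low libraries Fos stood at 175 and 398 RPKM, Junb at 694 and 974 and Zfp36 at 49.4 and 122, all above both virgin libraries, whereas in the 2 CB hi libraries they stood at 42.3 and 10.5, 153 and 42.8, and 13.6 and 6.73, all below both. Nr4a1, Dusp2 and Jund were below both virgin libraries in all 6 subset libraries, with highest levels of 32.3, 53.7 and 65.7 RPKM. Dusp5 was below both in 5 of the 6. These subset levels share the virgin reference and were not tested. Myc ran the other way, at 77 and 80.0 RPKM in virgin and 110 and 108 RPKM at gd8.5 (adjusted p = 0.46). Some members were far lower in the 16 time course libraries of gd6.5 cells than in the gd6.5 libraries. Their highest time course levels were 0.9969 RPKM for Nr4a1, 1.871 for Fos, 13.02 for Junb and 4.853 for Zfp36. The gd6.5 libraries had 27.48 and 34.35, 45.1 and 67.73, 208.1 and 371.2, and 24.68 and 37.65 in that order. Dusp2 reached 25.88 RPKM in the time course, against 21.65 and 17.2 at gd6.5. The part of the library series in this list was not tested.

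**Figure D3:**
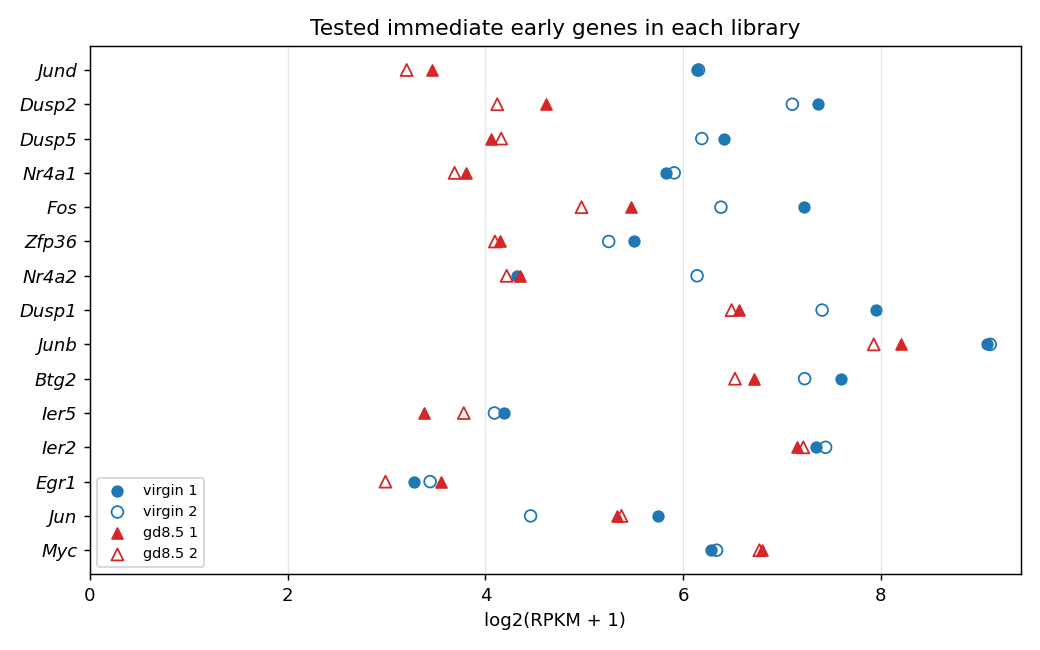
Level of each of the 15 tested immediate early genes, as log2(RPKM + 1), in virgin 1 and 2 (blue filled and open circles) and gd8.5 1 and 2 (red filled and open triangles), ordered by log2 fold change. The triangles lie left of both circles for 11 genes and right of both for Myc.

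The promoters of 3 of these phosphatase and receptor genes are shown because the genes were lower together. They hold the 250 bases before the RefSeq start on GRCm38.p6, with capitals on matches to TGACG, the core of the cyclic AMP response element, or to the CArG box, which serum response factor binds, on either strand. They are at chr15:101266596-101266845 for Nr4a1, chr2:127335909-127336158 for Dusp2 and chr19:53528895-53529144 for Dusp5, all on the plus strand.
Nr4a1: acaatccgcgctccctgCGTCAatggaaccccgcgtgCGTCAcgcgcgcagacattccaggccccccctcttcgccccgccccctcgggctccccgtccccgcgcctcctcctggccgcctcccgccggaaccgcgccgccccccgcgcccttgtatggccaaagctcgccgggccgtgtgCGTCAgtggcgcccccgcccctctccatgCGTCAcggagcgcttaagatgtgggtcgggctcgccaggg
Dusp2: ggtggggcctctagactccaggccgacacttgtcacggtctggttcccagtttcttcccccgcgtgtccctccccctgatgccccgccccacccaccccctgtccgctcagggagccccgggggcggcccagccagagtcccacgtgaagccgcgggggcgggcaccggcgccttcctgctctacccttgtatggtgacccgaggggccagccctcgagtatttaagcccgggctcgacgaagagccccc
Dusp5: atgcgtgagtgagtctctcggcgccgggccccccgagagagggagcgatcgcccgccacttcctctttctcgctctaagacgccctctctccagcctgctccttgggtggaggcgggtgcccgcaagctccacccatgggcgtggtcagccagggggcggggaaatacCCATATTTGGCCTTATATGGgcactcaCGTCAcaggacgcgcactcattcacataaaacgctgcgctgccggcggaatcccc
Nr4a1 holds 4 matches to TGACG, Dusp5 holds 1 beside 2 adjoining CArG boxes, and Dusp2 holds none. Of the 11 lower members, 10 had a promoter in the table, of which 6 held TGACG and 2 a CArG box. Over all 32851 promoters the shares were 17.8% and 1.47%. TGACGTCA, the full palindrome, which contains TGACG, was in 2 of the 10 and in 1.55% of all, and TGANTCA, the AP-1 site, in 0 of the 10 and in 6.75% of all. These matches describe letters and not binding. The list was chosen by hand and its members that were not lower were not counted, so the shares are no result about being lower. The Jund window, without a match, ends at 70697738, whereas the counted gene starts at 70698949.

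Several groups that act in NK cell recognition and cytokine response were also mostly lower, with no member called. Ifng, the signature cytokine of NK cells, stood at 106 and 140 RPKM in virgin cells and 18.2 and 37.1 RPKM at gd8.5, so the gd8.5 libraries lay below both virgin libraries but apart from each other (log2 fold change -2.22, SE 0.36, adjusted p = 0.083). The log2 fold change was -1.94 against virgin 1 alone and -2.4 against virgin 2 alone, in fits that share the gd8.5 libraries. Of 21 tested interferon-stimulated genes, 18 had a negative difference and 13 lay below both virgin libraries, where 18.1% of all tested genes did (14 and 23.2% on TMM-scaled CPM). The median was -0.56. It was -0.65 against virgin 1 and -0.36 against virgin 2. Rtp4, a chaperone of receptors induced by interferon, was at 70.4 and 50.9 RPKM in virgin and 22 and 13.3 at gd8.5 (adjusted p = 0.15). Oas1a, an antiviral sensor, was at 50.6 and 45.4 against 30.2 and 33.1 (adjusted p = 0.26).

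The exceptions in that list were Ifitm1, Ifitm2 and Ifitm3, membrane proteins that block viral entry. Ifitm2 stood at 5.19 RPKM in virgin 1, 398 in virgin 2 and 1378 and 1055 at gd8.5, and Ifitm1 at 1.31, 85.1, 202 and 184 in the same order. Both lay above both virgin libraries, and the virgin libraries differed more from each other than virgin 2 did from gd8.5. Of 18 tested genes of MHC class I and antigen processing, 17 had a negative difference (median -0.39), but 5 lay below both virgin libraries (8 on TMM-scaled CPM), where 18.1% of all tested genes did (23.2% on that scale), and the median was -0.69 against virgin 1 and -0.04 against virgin 2. B2m, the light chain of class I MHC, stood at 14440 and 9226 RPKM in virgin and 9087 and 9554 at gd8.5, which shows the same dependence.

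Of 30 tested NK receptors and adaptors, 24 had a negative difference and 12 lay below both virgin libraries, where 18.1% of all tested genes did (12 and 23.2% on TMM-scaled CPM). The median was -0.43, with -0.53 against virgin 1 and -0.17 against virgin 2. The gate gene Ncr1 was among the 12, with a log2 fold change of -0.56 (SE 0.15, adjusted p = 0.21). Klrc1, which encodes the inhibitory receptor NKG2A, stood at 576 RPKM in virgin 1, 75.4 in virgin 2 and 53.0 and 57.9 at gd8.5, so virgin 1 alone stood high. The Ly49 receptors Klra8 and Klra4 lay above both virgin libraries, at 688 and 879 against 573 and 459 RPKM for Klra8. The Ly49 genes are near-identical copies in a cluster, so their reads may be split among them. All 12 tested integrin and adhesion genes had a negative difference in the fit. Set against virgin 2, however, the gd8.5 mean was lower for 7 and higher for 5. Below both virgin libraries were 5, against the same 18.1% (median -0.44, with -0.98 against virgin 1 and -0.07 against virgin 2). Icam1, fitted at -0.001, lay above both virgin libraries, at 39.3 and 38.1 against 36.4 and 37.4 RPKM. Itgal, which encodes the LFA-1 alpha chain, stood at 45.2 and 35.4 in virgin and 23.3 in both gd8.5 libraries (adjusted p = 0.12).

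Among 12 tested cytokine receptors, 9 had a negative difference and 5 lay below both virgin libraries, where 18.1% of all tested genes did (5 and 23.2% on TMM-scaled CPM). The median was -0.38, with -0.43 against virgin 1 and -0.17 against virgin 2. Il21r, the receptor of IL-21, stood at 49.7 and 46.1 RPKM in virgin cells and 23.7 and 22.6 RPKM at gd8.5, with a log2 fold change of -1.12 (SE 0.19, adjusted p = 0.095). The gd6.5 libraries were at 32.9 and 43.0 RPKM, below virgin and above gd8.5. Il2ra, the high-affinity subunit of the IL-2 receptor, ran the other way, at 2.49 and 5.80 in virgin and 14 and 11.8 at gd8.5 (adjusted p = 0.31). Stat3 stood at 24.1 and 36.6 in virgin and 26.7 and 27.5 at gd8.5, and Il10rb at 53.9 and 20.4 against 24.2 and 22.1, so both overlapped. Of 10 JAK, STAT and SOCS genes, 9 had a negative difference in the fit. The gd8.5 mean was below virgin 1 for 6 of them and below virgin 2 for 6. Below both virgin libraries were 3, against the same shares (median -0.45, with -0.65 against virgin 1 and -0.26 against virgin 2).

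Of 12 tested NK transcription factors, 8 had a negative difference and 5 lay below both virgin libraries, against the same shares. The median was -0.53, but it was -0.87 against virgin 1 and -0.11 against virgin 2. Nfil3, which is needed for NK cell development, stood at 76.3 and 121 RPKM in virgin and 21 and 32.3 at gd8.5 (adjusted p = 0.17). Bhlhe40, a repressor tied to residency and cytokine output in lymphocytes, stood at 169 and 209 against 102 and 97.9 (adjusted p = 0.11). Tbx21, which encodes T-bet, stood at 4.75 in virgin 1 and 39.8 in virgin 2, against 44.5 and 45.2 at gd8.5. The NF-kB list had 9 of 13 tested genes negative and 4 below both virgin libraries on either scale, where 18.1% of all tested genes were on RPKM and 23.2% on TMM-scaled CPM. Its median of -0.19 changed sign between the virgin libraries, at 0.065 against virgin 1 and -0.60 against virgin 2. Nfkb1, which encodes the p105 and p50 subunit, lay above both virgin libraries, at 14.1 and 14.3 RPKM against 10.7 and 13.4 (adjusted p = 0.67), and so did Nfkbib, an inhibitor of NF-kB, at 59.4 and 63.8 against 43.1 and 53.5 (adjusted p = 0.55). Bcl3, a nuclear cofactor of NF-kB, stood at 14.4 and 27.3 against 4.90 and 4.85 (adjusted p = 0.12), and Tnfaip3, its feedback inhibitor A20, at 68.2 and 61.6 against 26.5 and 22.8 (adjusted p = 0.14). Tsc22d3, a glucocorticoid-induced gene also named GILZ, stood at 24.0 and 25.2 against 11.9 and 11.6 (log2 fold change -1.14, SE 0.17, adjusted p = 0.061).

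Several lists of growth and biosynthesis had mostly positive differences, which were small, and no member was called. Ribosome biogenesis had the highest median of the lists of 10 or more tested genes, with 21 of 22 tested genes positive and 15 above both virgin libraries, against a background of 28.6%. On TMM-scaled CPM 14 lay above both, against 22.7%. The median log2 fold change was 0.52, with 0.69 against virgin 1 and 0.29 against virgin 2. Ncl, the nucleolar protein nucleolin, stood at 56.8 and 71.8 RPKM in virgin and 112 and 108 RPKM at gd8.5 (adjusted p = 0.19). Nop16, also nucleolar, stood at 42.5 and 59.2 against 92.7 and 91.2 (adjusted p = 0.21). Against virgin 1 alone 7 of the 22 were called higher, where 5.18% of tested genes were, and against virgin 2 alone 1 was, where 0.388% were. The 75 tested cytosolic ribosomal proteins had 59 positive differences but a median of 0.08, which became 0.21 against virgin 1 and -0.01 against virgin 2.

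Amino acid transport and response had 9 of 12 tested genes positive and 7 above both virgin libraries, where 28.6% of all tested genes were (median 0.35, with 0.50 against virgin 1 and 0.21 against virgin 2). Besides Asns, Shmt1, a folate enzyme of serine metabolism, stood at 3.33 and 8.02 RPKM in virgin and 15.1 and 16.3 at gd8.5 (adjusted p = 0.23). Glycolysis and hypoxia had 13 of 16 positive and 9 above both, against the same share (median 0.33), with 0.49 against virgin 1 and 0.19 against virgin 2. Eno1, a glycolytic enolase, stood at 208 and 290 RPKM in virgin and 449 and 477 at gd8.5 (adjusted p = 0.19). The respiratory chain had 20 of 25 positive with a median of 0.12, which was 0.20 against virgin 1 and 0.018 against virgin 2. Cholesterol and fatty acid synthesis ran otherwise, with 5 of 9 positive and a median of 0.078 that was 1.26 against virgin 1 and -0.43 against virgin 2. Of the 9, 2 lay above both virgin libraries on RPKM and 0 on TMM-scaled CPM, against 28.6% and 22.7% of all tested genes. Heat shock proteins had 11 of 16 positive (median 0.21, with 0.33 against virgin 1 and 0.11 against virgin 2), and Hspa1a, the inducible HSP70, stood at 30.3 and 27.7 against 63.6 and 59.4 (adjusted p = 0.11).

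DNA replication had 30 of 36 tested genes positive (median 0.27, with 0.34 against virgin 1 and 0.12 against virgin 2). Of the 36, 14 lay above both virgin libraries, where 28.6% of all tested genes did on RPKM and 22.7% on TMM-scaled CPM. Cdc45, a subunit of the replicative helicase, stood at 8.32 and 12.1 RPKM in virgin and 26.3 and 17.5 at gd8.5 (adjusted p = 0.22). Mcm2, another helicase subunit, stood at 13.8 and 14 in virgin and 19.0 and 16.7 at gd8.5, while the gd6.5 pair had 45.0 and 46.0, so gd6.5 stood highest. Mitosis had 21 of 23 positive and 11 above both (9 on TMM-scaled CPM), against the same shares (median 0.39), but the median was 0.99 against virgin 1 and 0.04 against virgin 2. Mki67, a proliferation marker below the filter, stood at 4.44 and 8.70 in virgin and 9.09 and 5.69 at gd8.5 and overlapped. Of 12 BCL2 family and caspase genes, 7 were positive (median 0.31, with 0.38 against virgin 1 and 0.24 against virgin 2). Bcl2, which protects from apoptosis, stood at 21.8 and 19.0 RPKM in virgin and 38.6 and 41.5 at gd8.5 (adjusted p = 0.24), whereas Mcl1, another survival factor, stood at 19.1 and 26.7 against 12.3 and 14.2 (adjusted p = 0.23).

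**Figure D4:**
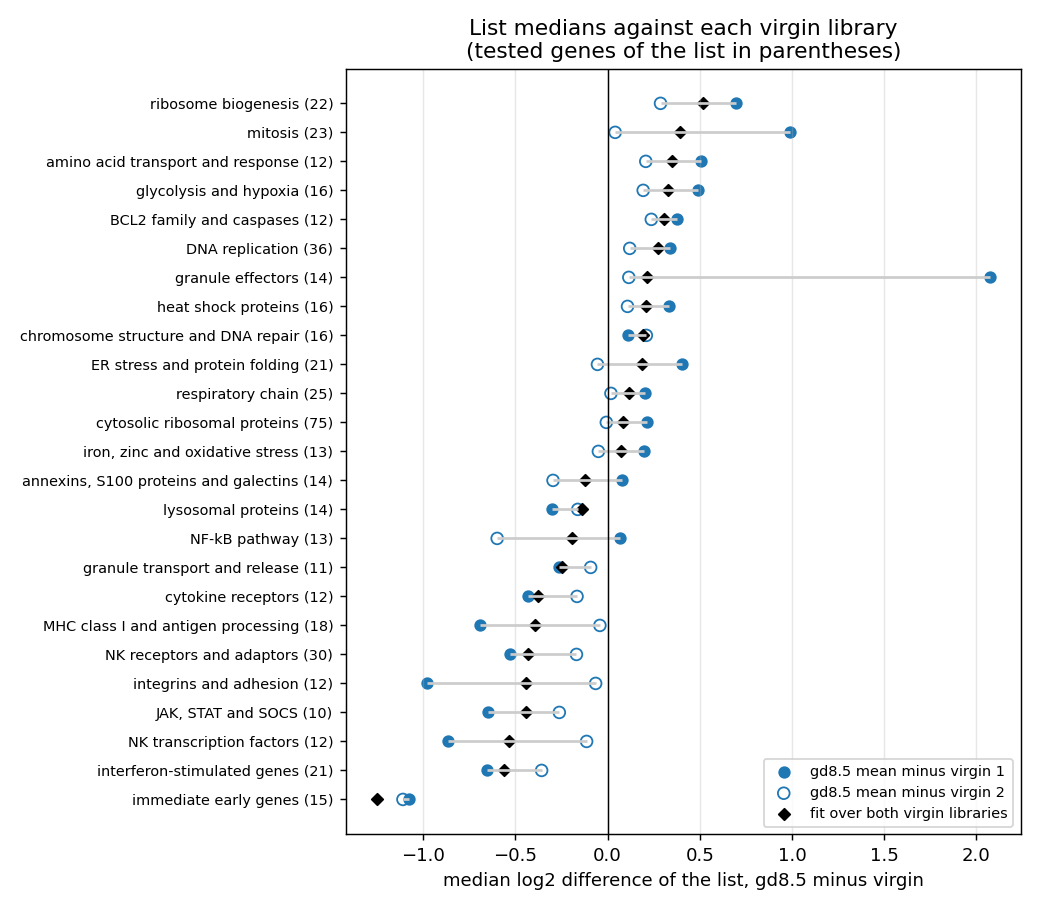
Median log2 difference of the tested genes of 25 lists with 10 or more of them, with the gd8.5 mean set against virgin 1 (filled circles), virgin 2 (open circles) and both in the edgeR fit (diamonds). Immediate early genes lie near -1.1 against either library, whereas granule effectors lie at 2.07 against virgin 1 and 0.12 against virgin 2.

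Among the lists of 10 or more tested genes, the median of granule effectors differed most between the virgin libraries. Of 14 tested, 8 had a positive difference and 5 lay above both virgin libraries, where 28.6% of all tested genes did. The median was 0.21 over both, 2.07 against virgin 1 and 0.12 against virgin 2. Against virgin 1 alone 8 of 14 were called higher (5.18% of tested genes), and against virgin 2 alone 2 were (0.388%). Gzmb stood at 173 RPKM in virgin 1, 8742 in virgin 2 and 10270 and 9814 at gd8.5. Gzma stood at 270, 4136, 1464 and 2393 in the same order, and Prf1, which encodes perforin, at 134, 515, 317 and 447, so gd8.5 lay between the virgin libraries for both. Gzme stood at 0, 303, 1061 and 1110, and Gzmd at 0, 280, 887 and 1670, so these lay above both. Gzmb to Gzmg lie in one cluster of similar genes, and reads may be split among them. Spp1, the secreted matrix protein osteopontin, stood at 378, 5895, 4726 and 4450. Tnfrsf9, which encodes 4-1BB, stood at 123, 751, 709 and 756, Cd55 at 26.2, 110, 71.3 and 65.7, and Klrg1, an inhibitory receptor, at 284, 910, 361 and 434. For these 4 genes gd8.5 either fell between the virgin libraries or overlapped them, and their adjusted p lay between 0.58 and 0.97.

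The granule transport and release list had 9 of 11 negative, with a median of -0.25 that was -0.27 against virgin 1 and -0.09 against virgin 2. The lysosomal list had 12 of 14 negative, with a median of -0.14 that was -0.30 and -0.16. Dock8, an exchange factor that NK cells need for synapse formation, stood at 55.5 and 49.3 RPKM in virgin and 21 and 28.9 at gd8.5 (adjusted p = 0.11), and its length differs in the file of virgin 1. The annexin, S100 and galectin list had 11 of 14 negative (median -0.12), and the list of ER stress and protein folding 17 of 21 positive (median 0.19). These latter lists changed the sign of their median between the virgin libraries, at 0.08 and -0.30 for the first and 0.41 and -0.06 for the second. With 2 libraries against 2, an exact permutation test of a single value cannot go below p = 0.33, so single genes were judged by the fit over all genes.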

How the data were processed

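Whole-transcript cDNA was made from sorted cells with the SMART-Seq HT kit. By the methods, reads were aligned to mm10 with HISAT2 (version 2.1.0 in the submitters' processing notes) and quantified by RSEM, while the notes list featureCounts. The authors deposited raw read counts per gene, with exon positions and lengths on GRCm38. The file of virgin library 1 lists other genes, and 1333 of the 54353 shared genes have another length there and 9314 other exon positions, so lengths of the other files were used throughout.

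Groups came from the labels. RPKM used total counts. Genes above 10 RPKM in both libraries of virgin, gd6.5 or gd8.5 cells were tested in one fit over these 6 libraries with edgeR 4.0.16 (TMM, quasi-likelihood test, no covariates; R 4.3.3) and Benjamini-Hochberg adjustment, called at adjusted p below 0.05 and fold above 2. The common biological coefficient of variation was 0.254 and the prior degrees of freedom 3.36. On simulated data with 200 genes changed 4-fold, 95.5% were found and 6.83% of calls were false. Both shares describe simulated libraries only. In the real data 466 genes were over 2-fold apart within the virgin pair, against 86 within gd6.5 and 64 within gd8.5. How complete or correct the real calls are under that uneven spread was not tested. Standard errors are the fold change over the root of F. Differences against 1 virgin library are of mean TMM-scaled log2 CPM (prior count 2) for list medians, and of a fit without the other virgin library for calls.

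Named genes are the called genes, the 12 largest gaps in each direction, up to 2 genes each way per list, genes of the gate and of trNK function, and the 6 largest differences each way between the virgin libraries. Exceptions are said in the text, and Il2rg, Gm25939, Gm47283 and some others chosen by the rule are not described, and some genes and lists are not reported here. Members and lists were chosen with earlier results of these data known. Alternatives were RLE factors, DESeq2 1.42.0, limma 3.58.1 with voom, other filters, a replicate block and leaving out each library. Single-cell counts and other bulk libraries were not tested here.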

Additional observations from a re-analysis of the deposited data

How the results depend on the processing

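The 17 calls (1 higher, 16 lower) became 164 with DESeq2 (35 and 129), 502 without the RPKM filter (191 and 311), 5 with filterByExpr (1 and 4), and 213 with an unadjusted p (54 and 159). They became 25 with limma voom, of which 3 were higher, and 22 with genes of equal length in all files, of which 2 were higher. With the 2215 genes of the same exon positions in all files, added after seeing the data, they became 8 (1 and 7). RLE factors gave 19 and the 4 libraries alone 16. Leaving out each library gave 0 to 597 calls, with 0 to 253 higher and 0 to 344 lower. Without virgin replicate 1 there were 79, without virgin replicate 2 there were 597, and without either gd8.5 library none. In those last fits with edgeR, 314 and 345 genes had an unadjusted p below 0.05. The cause was not tested. The lone library of a group is assumed to vary like the others.

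With the replicate number as a block, edgeR called 0 genes (0 higher, 0 lower), while 506 had an unadjusted p below 0.05 and the smallest adjusted p was 0.057. Whether same-numbered libraries were prepared together is not in the labels. Their deviations correlated at -0.31 for virgin and gd6.5, 0.11 for virgin and gd8.5 and -0.03 for gd6.5 and gd8.5. The virgin libraries differ widely from each other, so these correlations cannot show whether the numbers pair the samples.

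Without the RPKM filter, 3627 genes lay higher and 2838 lower without overlap. The count of genes apart between the virgin libraries was 528 with a pseudocount of 0.1 RPKM and 496 on TMM-scaled CPM, against 466, and 263 among genes of the same exon positions. Of the 95 tested genes named in the text, 72 kept the sign of their log2 fold change in every setting tried and 23 did not. All 23 changed sign in a fit without 1 of the virgin libraries. Over the fits that leave out 1 library, the lowest and highest log2 fold changes were -2.09 and 3.50 for Cd3d, -1.31 and 2.72 for Itgb7, -2.85 and 0.18 for Pim2, -0.19 and 0.10 for Klrb1c, and -0.85 and 0.071 for Eomes. They were -1.21 and 1.38 for Ltb, -0.80 and 0.84 for Tnfsf9, -0.41 and 0.87 for Jun, -0.49 and 0.13 for Egr1, -0.49 and 0.16 for Stat3, and -1.23 and 0.13 for Il10rb. They were -1.15 and 2.83 for Gzma, -0.48 and 1.51 for Prf1, -0.42 and 3.59 for Spp1, -0.091 and 2.57 for Tnfrsf9, -0.73 and 1.38 for Cd55, -1.25 and 0.48 for Klrg1, -0.67 and 2.05 for Cd3g, and -0.18 and 3.81 for Epcam. They were -1.25 and 1.36 for Gzmk, -0.18 and 8.41 for Gzmc, and, for genes at 0 RPKM in virgin 1, whose upper value depends on the prior count, -0.29 and 15.2 for Ccl1 and -0.12 and 17.1 for Ptprcap. With limma voom the sign changed for Cd3d (0.46), Itgb7 (0.51), Gzma (0.79) and Cd55 (0.29), and with the replicate block it changed for the same 4 genes (0.12, 0.34, 0.11 and 0.088). In 1131 gene and setting pairs the direction and call stayed, in 83 the call was lost, in 136 it was gained and in 35 the sign changed. List medians moved by more than the replicate spread in 56 list and setting pairs and by less in 513. Depth limits genes at few counts, such as Lcn4 with 9 and 12 at gd8.5 and the granzymes with 0 in virgin 1.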

Other observations

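The noncoding genes Gm15920 and Gm13092 divided the subset libraries of gd8.5 by replicate number. Gm15920 stood at 49.8, 58.0 and 87.2 RPKM in replicate 1 of the CB low, CB int and CB hi subsets and at 2.83, 2.15 and 4.82 RPKM in replicate 2. Gm13092 stood at 38.4, 30.5 and 37.5 RPKM against 6.03, 2.54 and 2.92 RPKM. Both gd8.5 libraries resembled the first replicates, at 76.8 and 82.9 RPKM for Gm15920.

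The erythroid genes were high in 1 library of each group. Hba-a1, an alpha globin chain, stood at 1.40 and 82.2 RPKM in virgin libraries 1 and 2 and at 0.0732 and 493 RPKM in gd8.5 libraries 1 and 2. The T cell receptor gene Trac stood at 9.23 and 18.5 RPKM in virgin and 32.1 and 21.6 RPKM at gd8.5, and Cd3g at 183 and 26.9 against 95.6 and 136 RPKM.

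Srsf2 and Taf10, which are in no list, missed the threshold. The splicing factor Srsf2, named after its values were seen, stood at 58.4 and 77.7 RPKM in virgin and 19.1 and 13.4 RPKM at gd8.5 (log2 fold change -2.13, SE 0.28, edgeR adjusted p = 0.051). Taf10, a subunit of TFIID, stood at 38.9 and 46.2 RPKM in virgin, 37.3 and 7.42 RPKM at gd6.5 and 2.97 and 2.90 RPKM at gd8.5 (adjusted p = 0.11). Both gd6.5 libraries lay between virgin and gd8.5, but the first was near the virgin level and the second near gd8.5. Taf10 also divided the gd8.5 subset libraries by replicate number. It stood at 32.71, 24.51 and 12.99 RPKM in replicate 1 of CB low, CB int and CB hi. In replicate 2 it stood at 2.284, 3.037 and 7.725 RPKM.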
